A study of Mus musculus with 10 samples.

Results

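The mitochondrial beta-oxidation enzymes described here are the products of 10 mouse genes, Acadvl, Acadl, Acadm, Acads, Hadha, Hadhb, Hadh, Eci1, Decr1 and Etfdh. They were taken by name, and their probes were found by the RefSeq accession that the array files give for each probe. All 10 genes were on the array, with 12 probes, among 17016 genes with a symbol. The comparison between groups covered 26148 genes, 15134 of them with a symbol, and 7 of the 10 enzyme genes were among them. The other 3, Acadm, Hadh and Etfdh, had too few spots left after those that the scanner software marked as outliers were removed, and are given with the marked spots kept.

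On 10 two-colour Agilent arrays, Cy5-labelled RNA from livers of male C57BL/6N mice was hybridised against a commercial mixed mouse RNA in Cy3, which the labels also list as liver. In this study of acute alcohol exposure, 3 arrays held livers of mice gavaged with 7 g/kg ethanol, 4 held livers after 5 g/kg ethanol and 3 held livers after maltose with the calories of 5 g/kg ethanol. The maltose control was therefore not matched in calories to the 7 g/kg dose, and the labels give neither the age of the mice nor the time between gavage and collection. The labels do not say whether each array is a separate mouse, and the p-values cover only how much arrays of a group differ. All levels below are log2 ratios of liver Cy5 over reference Cy3, in which 1 unit is a 2-fold difference.

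Beta-oxidation shortens fatty acids inside the mitochondrial matrix by removing acetyl units in repeated turns of the same 4 reactions, namely dehydrogenation, hydration, a second dehydrogenation and thiolytic cleavage. Acyl-CoA dehydrogenases that differ in the chain length they prefer start each turn and pass their electrons through the electron transfer flavoprotein to Etfdh, which hands them to ubiquinone of the respiratory chain. In the liver the pathway supplies acetyl-CoA for ketone bodies during fasting, and the nuclear receptor PPAR alpha, encoded by Ppara, is a known activator of many of its genes.

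RefSeq promoter windows of GRCm38.p6, which run from 250 bases before to 50 after the start of a gene, were available for 9 of the 10 genes. Hadha and Hadhb encode the subunits of 1 enzyme and lie head to head on chromosome 5, with 272 bases between their starts and 228 bases shared by their windows. The Hadhb window, which holds most of the DNA between both genes, and the windows of Acadm and Acadvl, those of the 9 with the nuclear receptor half-site AGGTCA, are printed 5′ to 3′ on the strand of the gene, at chr5:30155003-30155302 (+), chr3:153944594-153944893 (−) and chr11:70015379-70015678 (−). Capitals mark AGGTCA, the GC box GGGCGG and the CCAAT box on either strand.
Hadhb: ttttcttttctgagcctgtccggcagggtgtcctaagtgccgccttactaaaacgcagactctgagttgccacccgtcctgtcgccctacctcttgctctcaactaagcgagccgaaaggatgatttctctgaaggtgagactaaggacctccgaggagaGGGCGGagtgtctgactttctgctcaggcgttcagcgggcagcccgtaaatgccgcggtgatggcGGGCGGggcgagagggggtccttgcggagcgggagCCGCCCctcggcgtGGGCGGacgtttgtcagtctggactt
Acadm: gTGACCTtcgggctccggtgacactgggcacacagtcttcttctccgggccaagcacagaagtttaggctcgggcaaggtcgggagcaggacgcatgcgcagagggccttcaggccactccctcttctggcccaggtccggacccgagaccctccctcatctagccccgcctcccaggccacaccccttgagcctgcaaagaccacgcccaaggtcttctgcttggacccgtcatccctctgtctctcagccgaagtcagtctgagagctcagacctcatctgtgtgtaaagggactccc
Acadvl: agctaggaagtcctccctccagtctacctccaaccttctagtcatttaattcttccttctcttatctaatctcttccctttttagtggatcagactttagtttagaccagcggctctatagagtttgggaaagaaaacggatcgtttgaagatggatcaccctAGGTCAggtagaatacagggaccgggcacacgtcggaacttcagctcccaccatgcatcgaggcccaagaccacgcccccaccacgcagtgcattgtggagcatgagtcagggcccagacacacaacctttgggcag
The half-site lay at bases 2 to 7 of the Acadm window, as its reverse complement, and at bases 164 to 169 of the Acadvl window. It occurred in 2 of 9 windows of these genes, against 16.3% of all 32817 windows. The GC box occurred in 7 of 9 windows, against 35.6% of all windows, and the median GC content was 61.3% in the 9 windows and 52.7% in all. The only GC box of the Hadha window, at bases 63 to 68, is the same DNA as bases 161 to 166 of the Hadhb window. These 2 of the 7 windows are therefore not separate. The CCAAT box occurred in 2 of 9 windows, against 37.4% of all. The direct repeat of AGGTCA with 1 base of any kind between its copies (DR1) occurred in 0 of 9 windows and in 0.0396% of all, and with up to 2 mismatches in 0 of 9 and in 3.86% of all. The motifs TCAAGGTCA, TGACGTCA and CACGTG occurred in 0 of 9 windows each, against 0.424%, 1.79% and 7.15% of all windows. A match is a run of letters and not evidence of binding. An absence covers only the bases of the window and does not show that a gene lacks the element. The Acadm half-site lies at the edge of its window, so a copy before it could not be seen.

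The arrays had a median liver signal of 121 to 219 units over a local background of 21 to 24 units, the liver channel was well above background for 67.3% to 86.2% of spots, and no spot was saturated. All 12 probes of the 10 genes stood well above background on all 10 arrays. The 5 hepatocyte marker genes on the array, of 8 listed, were also well above background on every array. So were all 4 exocrine pancreas and all 4 adipocyte markers, and the flag alone does not show that a gene is expressed in liver. The number of arrays limits the precision. The 4 slides each held arrays of at least 2 groups.

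At 7 g/kg ethanol the messages of the whole enzyme set were lower than with maltose. The 7 genes tested all fell, by 1.43-fold to 2.26-fold, with the largest fold for Hadhb and the smallest for Acads (limma, Benjamini-Hochberg adjusted p from 2.73e-05 to 0.0103). Over all 26148 genes tested, 8.91% passed the same threshold, an adjusted p under 0.05, and 4.28% did so as lower. With marked spots kept, 10 of 10 genes fell, against 9.02% of 26970 genes called and 4.37% called lower. The median log2 change of the 7 genes was −0.90, and that of all genes tested was 0.013. The 7 genes also lay below maltose on average at 5 g/kg, but 0 passed. Between the doses 5 of the 7 passed as lower at 7 g/kg, against 0.883% of all genes tested called lower, and 2 to 4 did so with any 1 array left out. In bulk liver RNA, fewer cells of a type and less RNA per cell cannot be told apart.

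**Figure D1:**
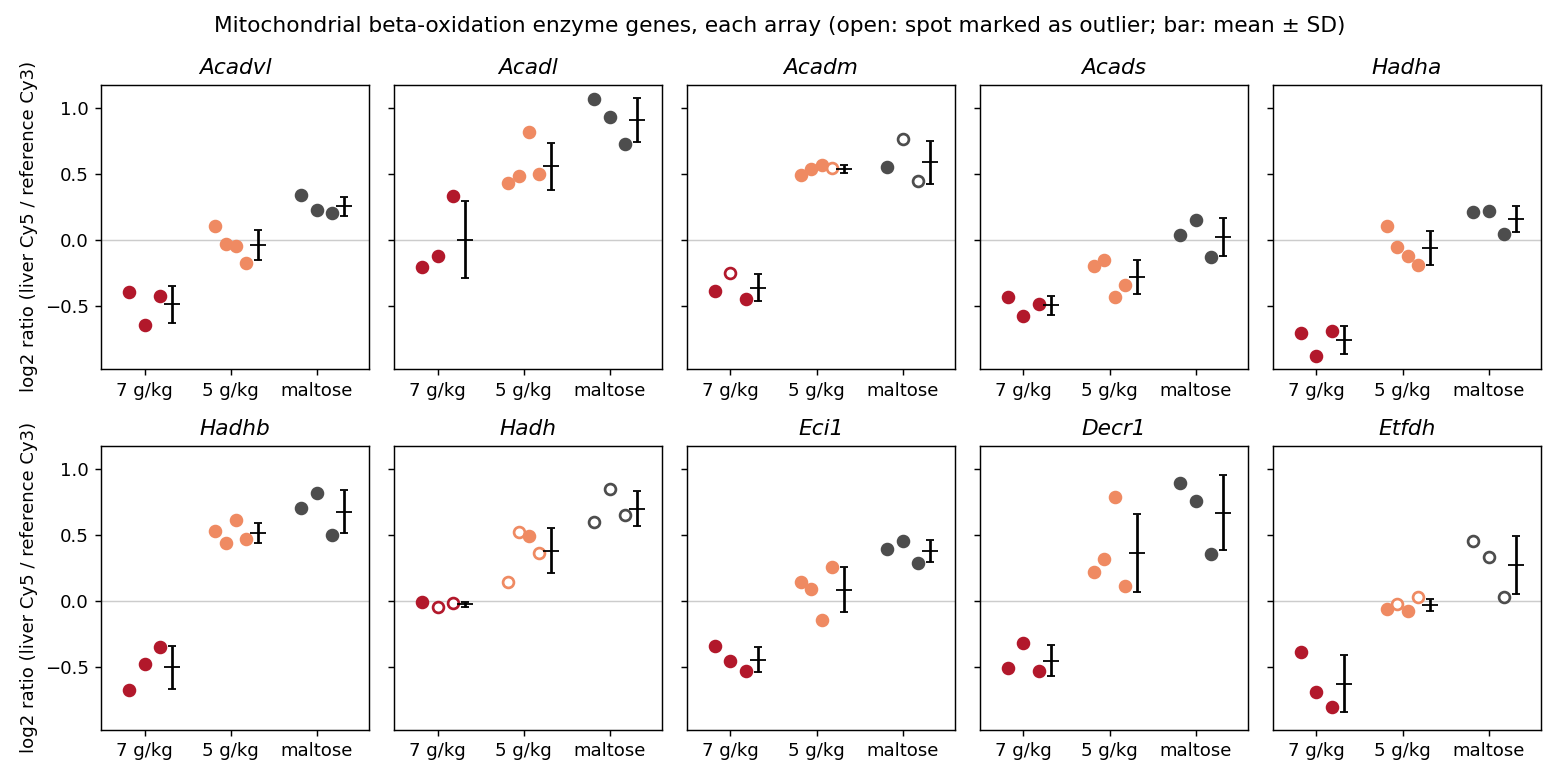
Log2 ratio of liver Cy5 over reference Cy3 for each of the 10 genes (panels) on each array, at 7 g/kg ethanol, 5 g/kg ethanol and maltose. Open symbols are spots marked as outliers and bars give the mean ± SD of 3, 4 and 3 arrays; in every panel all 7 g/kg arrays lie below all maltose arrays.

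The acyl-CoA dehydrogenases Acadvl, Acadl, Acadm and Acads take very long, long, medium and short chains. Acadvl, the enzyme of the inner membrane that starts on the longest chains, had log2 ratios of −0.39, −0.64 and −0.42 at 7 g/kg, 0.11, −0.025, −0.044 and −0.17 at 5 g/kg, and 0.34, 0.22 and 0.20 with maltose. The 3 groups did not overlap. Acadvl fell 1.67-fold at 7 g/kg against maltose (log2 −0.74, SE 0.111, limma adjusted p = 0.00069), and its change at 5 g/kg was −0.29 (limma adjusted p = 0.169). Its difference between 7 and 5 g/kg was −0.45 (limma adjusted p = 0.0437), a call lost with slide as a block (limma adjusted p = 0.0955) and without any 1 of 9 of the 10 arrays. It was also lost under other alternatives, given in the closing section.

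Acadl had log2 ratios of −0.21, −0.12 and 0.33 at 7 g/kg, 0.43, 0.48, 0.82 and 0.50 at 5 g/kg, and 1.06, 0.93 and 0.73 with maltose. Its 7 g/kg arrays spread the most of the 10 genes (SD 0.29, n = 3), and the array of 0.82 stood apart from the other 5 g/kg arrays and overlapped maltose. The 7 g/kg arrays still lay below all others, and Acadl was 1.87-fold lower than with maltose (log2 −0.90, SE 0.152, limma adjusted p = 0.00163). Against 5 g/kg its difference of −0.55 did not pass (limma adjusted p = 0.076), but passed without 7 g/kg array 3, the highest of its group (limma adjusted p = 0.0216).

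Acadm is the medium-chain enzyme whose inherited deficiency in humans causes fasting hypoglycaemia with low ketones. Its spots were marked as outliers on 1 of 3 arrays at 7 g/kg, 1 of 4 at 5 g/kg and 2 of 3 with maltose. With these kept, Acadm had log2 ratios of −0.39, −0.25 and −0.45 at 7 g/kg, 0.49, 0.54, 0.57 and 0.55 at 5 g/kg, and 0.55, 0.77 and 0.45 with maltose. The 5 g/kg arrays lay inside the range of maltose, and the 7 g/kg arrays lay far below both. Acadm was 1.93-fold lower at 7 g/kg than with maltose (log2 −0.95, limma adjusted p = 8.11e-05) and lower than at 5 g/kg (log2 −0.90, limma adjusted p = 0.000336). Its change at 5 g/kg was −0.052 (limma adjusted p = 0.869), and 0.037 without maltose array 2.

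Acads, the short-chain enzyme, had log2 ratios of −0.43, −0.57 and −0.48 at 7 g/kg, −0.19, −0.15, −0.43 and −0.34 at 5 g/kg, and 0.040, 0.15 and −0.13 with maltose. Both ethanol groups lay below all maltose arrays, and 1 array at 5 g/kg reached into the 7 g/kg range. Acads fell 1.43-fold at 7 g/kg (log2 −0.52, SE 0.114, limma adjusted p = 0.0103), a call lost without maltose array 2 (limma adjusted p = 0.0512). Its change at 5 g/kg was −0.30 (limma adjusted p = 0.162) and its difference between doses −0.21 (limma adjusted p = 0.511).

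Hadha and Hadhb encode the alpha and beta subunits of the mitochondrial trifunctional protein, which carries out the last 3 steps of each turn on long chains. Hadha, with the hydratase and dehydrogenase activities, had log2 ratios of −0.70, −0.88 and −0.68 at 7 g/kg, 0.11, −0.049, −0.12 and −0.19 at 5 g/kg, and 0.21, 0.22 and 0.048 with maltose. Hadhb, with the thiolase activity, had −0.68, −0.48 and −0.35 at 7 g/kg, 0.53, 0.44, 0.61 and 0.47 at 5 g/kg, and 0.70, 0.82 and 0.50 with maltose. For both subunits the 7 g/kg arrays lay below all others, and the 5 g/kg and maltose arrays overlapped. Against maltose, Hadha was 1.89-fold lower (log2 −0.91, SE 0.111, limma adjusted p = 0.000139) and Hadhb 2.26-fold lower (log2 −1.18, SE 0.118, limma adjusted p = 2.73e-05). Both were also lower at 7 than at 5 g/kg, Hadha by a log2 difference of −0.69 (limma adjusted p = 0.00348) and Hadhb by one of −1.01 (limma adjusted p = 0.000293). These calls were lost with the Cy5 channel alone (limma adjusted p = 0.108 for Hadha and 0.146 for Hadhb). The changes at 5 g/kg were −0.22 for Hadha (limma adjusted p = 0.326) and −0.16 for Hadhb (limma adjusted p = 0.559).

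Hadh encodes the dehydrogenase that oxidises medium- and short-chain 3-hydroxyacyl-CoA. Its spots were marked on 8 of 10 arrays, including all 3 with maltose, and with these kept its log2 ratios were −0.0083, −0.046 and −0.019 at 7 g/kg, 0.14, 0.52, 0.49 and 0.36 at 5 g/kg, and 0.60, 0.84 and 0.65 with maltose. The 3 groups did not overlap. The change at 7 g/kg was −0.72 (limma adjusted p = 0.0014) and that at 5 g/kg −0.32 (limma adjusted p = 0.154). The difference between doses, −0.40, did not pass (limma adjusted p = 0.103), but passed with slide as a block (limma adjusted p = 0.0478).

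Unsaturated fatty acids go through the cycle until a double bond blocks a step, and auxiliary enzymes then move or remove it. Eci1, the isomerase that shifts double bonds, had log2 ratios of −0.34, −0.46 and −0.53 at 7 g/kg, 0.15, 0.088, −0.15 and 0.25 at 5 g/kg, and 0.40, 0.45 and 0.29 with maltose, with no overlap between groups. It was 1.77-fold lower at 7 g/kg than with maltose (log2 −0.82, SE 0.117, limma adjusted p = 0.000455). The difference between 7 and 5 g/kg, −0.53 (limma adjusted p = 0.0254), was a call lost with slide as a block (limma adjusted p = 0.0574) and without any 1 of 6 arrays, namely all of 7 g/kg and 5 g/kg arrays 1, 2 and 4. It was also lost under other alternatives, given in the closing section.

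Decr1, the reductase that removes conjugated double bonds, had 2 probes. Both were dim, at 152 to 410.5 and 68 to 182 units in the liver channel, against array medians of 121 to 219 units. Under the alternatives its log2 change at 7 g/kg against maltose ranged from −1.47 to −0.84. The brighter one had log2 ratios of −0.51, −0.32 and −0.53 at 7 g/kg, 0.22, 0.32, 0.79 and 0.12 at 5 g/kg, and 0.89, 0.76 and 0.35 with maltose. The dimmer one had −0.093, −0.17 and −0.32 at 7 g/kg, 0.14, 0.37, 0.068 and 0.82 at 5 g/kg, and 0.35, 0.48 and 0.28 with maltose. On both probes the 7 g/kg arrays lay below all others, and the highest 5 g/kg array was array 3 on one probe and array 4 on the other. The brighter probe fell 2.17-fold at 7 g/kg (log2 −1.12, SE 0.171, limma adjusted p = 0.0008) and the dimmer one by 0.57 on the log2 scale (limma adjusted p = 0.0427 in a fit of all probes). The brighter probe was also lower at 7 than at 5 g/kg (log2 −0.81, limma adjusted p = 0.0185). This call was lost without 7 g/kg array 1, 7 g/kg array 3 or 5 g/kg array 2, and under other alternatives given in the closing section. The dimmer probe differed by −0.55 between doses (limma adjusted p = 0.108). At 5 g/kg against maltose the brighter probe changed by −0.31 (limma adjusted p = 0.394). The dimmer one changed by −0.021 (limma adjusted p = 0.97 in the fit of all probes).

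Etfdh, the oxidoreductase through which electrons of the acyl-CoA dehydrogenases reach ubiquinone, also had 2 probes. Brighter and dimmer refer to the mean of both channels. In the liver channel the dimmer probe read 1334 to 2958 units and the brighter one 1071 to 2364.5 units. The spots of the brighter one were marked on 5 arrays, 2 of 4 at 5 g/kg and 3 of 3 with maltose, and with these kept it had log2 ratios of −0.39, −0.69 and −0.80 at 7 g/kg, −0.060, −0.020, −0.074 and 0.030 at 5 g/kg, and 0.45, 0.34 and 0.027 with maltose. The dimmer one, marked on all 10 arrays, had 0.093, 0.42 and 0.041 at 7 g/kg, 0.64, 0.63, 0.84 and 0.68 at 5 g/kg, and 1.19, 1.07 and 1.04 with maltose. On both probes the 7 g/kg arrays lay below the other 2 groups. The log2 changes at 7 g/kg were −0.90 for the brighter probe (limma adjusted p = 0.000613) and −0.91 for the dimmer one (limma adjusted p = 0.000207 in the fit of all probes). Between doses they were −0.59 for the brighter probe (limma adjusted p = 0.0251) and −0.51 for the dimmer one (limma adjusted p = 0.0287 in the fit of all probes). The call of the brighter probe was lost without any 1 of 5 arrays, namely 7 g/kg arrays 2 and 3 and 5 g/kg arrays 1, 2 and 4. It was also lost under other alternatives, given in the closing section.

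**Figure D2:**
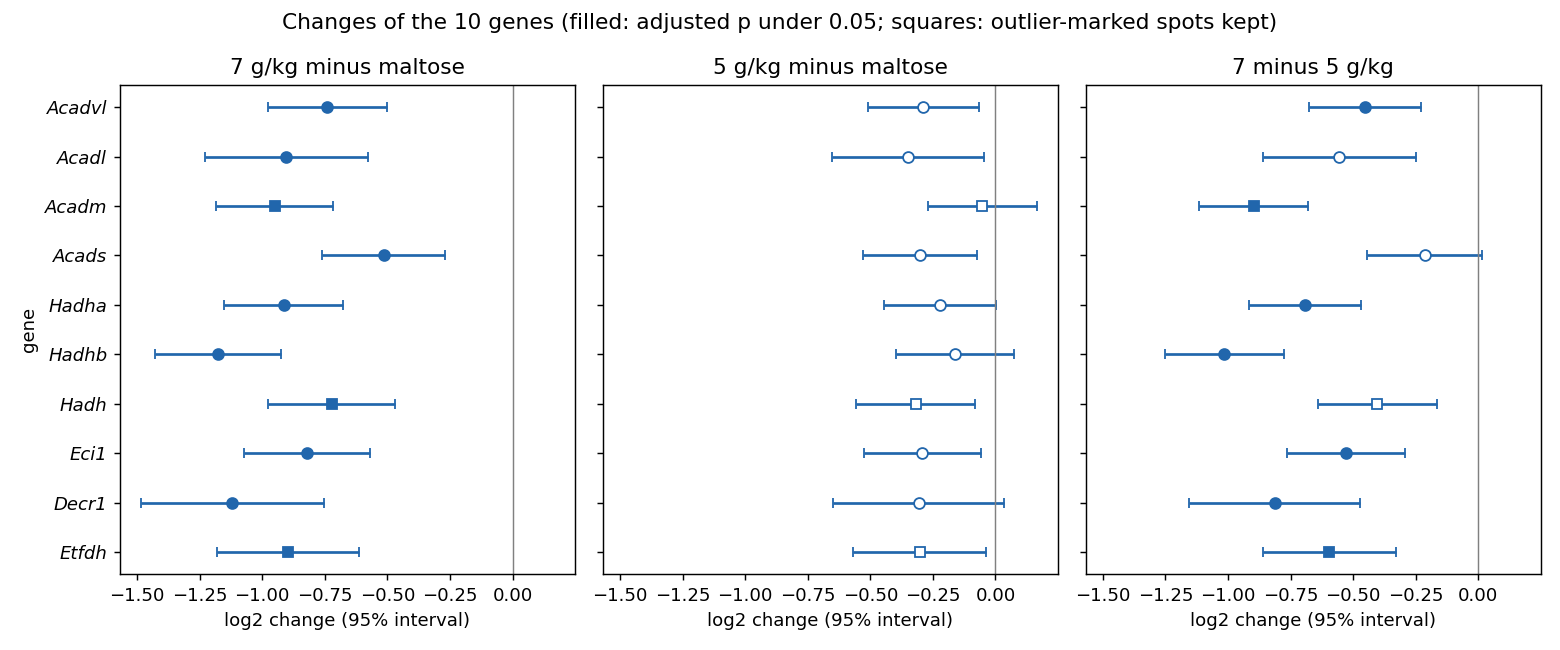
Log2 change of each gene (rows) with its 95% interval at 7 g/kg minus maltose, 5 g/kg minus maltose and 7 minus 5 g/kg. Filled symbols have a limma adjusted p under 0.05 and squares are the 3 genes with marked spots kept; 10, 0 and 7 symbols are filled.

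The lower dose showed smaller differences of the same sign. Against maltose, 0 of 7 genes passed in limma at 5 g/kg, where 3.77% of all genes tested were called and 1.59% were called lower. With marked spots kept it was 0 of 10, against 3.79% called and 1.58% called lower. At an unadjusted p under 0.05, 4 of the 7 genes (Acadvl, Acadl, Acads and Eci1) were lower, against 6.95% of all genes tested. All 7 changes were below 0, from −0.35 for Acadl to −0.16 for Hadhb, with a median of −0.29 against 0.0023 over all genes tested. Every 5 g/kg array lay below every maltose array for 3 of the 7 genes, Acadvl, Acads and Eci1, which was so for 7.7% of all genes tested. With marked spots kept Hadh joined them, for 4 of 10 genes against 7.38% of all. The limma intervals leave room for larger and smaller effects, and the missed threshold does not show that 5 g/kg left these genes as they were.

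Between the doses, 5 of the 7 genes were lower at 7 g/kg, against 1.56% of all genes tested that were called and 0.883% called lower. With marked spots kept it was 7 of 10 genes, against 1.68% of genes called and 0.949% called lower. Every 7 g/kg array lay below every 5 g/kg array for 6 of the 7 genes, all but Acads, and for 6% of all genes tested. With marked spots kept this was 9 of 10 genes, against 5.73% of all. The count of 5 was 3 with slide as a block and between 2 and 4 with any 1 array left out. At 7 g/kg against maltose the groups did not overlap for 7 of the 7 genes, and 12.1% of all genes tested were lower without overlap. With marked spots kept it was 10 of 10 genes, against 11.8% of all. The 3 comparisons share their arrays, so they are not independent of each other.

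The change at 5 g/kg was also expressed as a share of that at 7 g/kg, both against maltose, which rests on 5 g/kg changes of which 0 passed. This share was 5.50% for Acadm, 13.8% for Hadhb, 24.3% for Hadha and 27.4% for the brighter probe of Decr1. It was 33.7% for Etfdh, 35.6% for Eci1, 38.6% for Acadl, 38.9% for Acadvl and 44.0% for Hadh. For Acads it was 58.4%. The differences between genes were not tested, and no order is read from these shares. Without maltose array 2 the 5 g/kg change was 0.037 for Acadm and −0.090 for Hadhb, and without maltose array 3 it was −0.12 for Acadm and −0.25 for Hadhb. For the brighter probe of Decr1 it was −0.46 without maltose array 3 and −0.19 without maltose array 1. The dimmer probe of Decr1 had a 5 g/kg change of −0.021 with all arrays.

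When all 10 genes were averaged, the arrays of each ethanol group lay close together, and the maltose arrays spread more. With each gene set against its mean in the maltose arrays, the average over the 10 genes was −0.87, −0.91 and −0.86 on the 7 g/kg arrays, −0.27, −0.25, −0.22 and −0.30 on the 5 g/kg arrays, and 0.063, 0.088 and −0.15 on the maltose arrays. The lowest maltose array, array 3, was the lowest of its group for 9 of the 10 genes. No array at 7 g/kg was the lowest of its group for more than 4 genes, and none at 5 g/kg for more than 3.

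The slide of an array was read from the files. Within the 2 slides that held both groups, the log2 difference of 7 g/kg minus maltose was below 0 in 20 of 20 cases (10 genes on each slide), from −1.49 to −0.353. That of 7 minus 5 g/kg was below 0 in 30 of 30 cases over 3 slides, from −1.11 to −0.139. That of 5 g/kg minus maltose was below 0 in 28 of 30 cases, from −0.671 to 0.10, and the 2 others were Acadm and Etfdh on slide 2. Each such difference sets 1 array against 1 array, with marked spots kept. The 10 genes on a slide share the same 2 arrays, so the cases are not replicates. Over all genes tested, the median difference by slide was −0.026 and 0.013 at 7 g/kg minus maltose. It was 0.0093, −0.018 and 0.011 at 7 minus 5 g/kg, and 0.0086, 0.0085 and −0.00025 at 5 g/kg minus maltose. The share of all genes below 0 on every slide is not given.

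**Figure D3:**
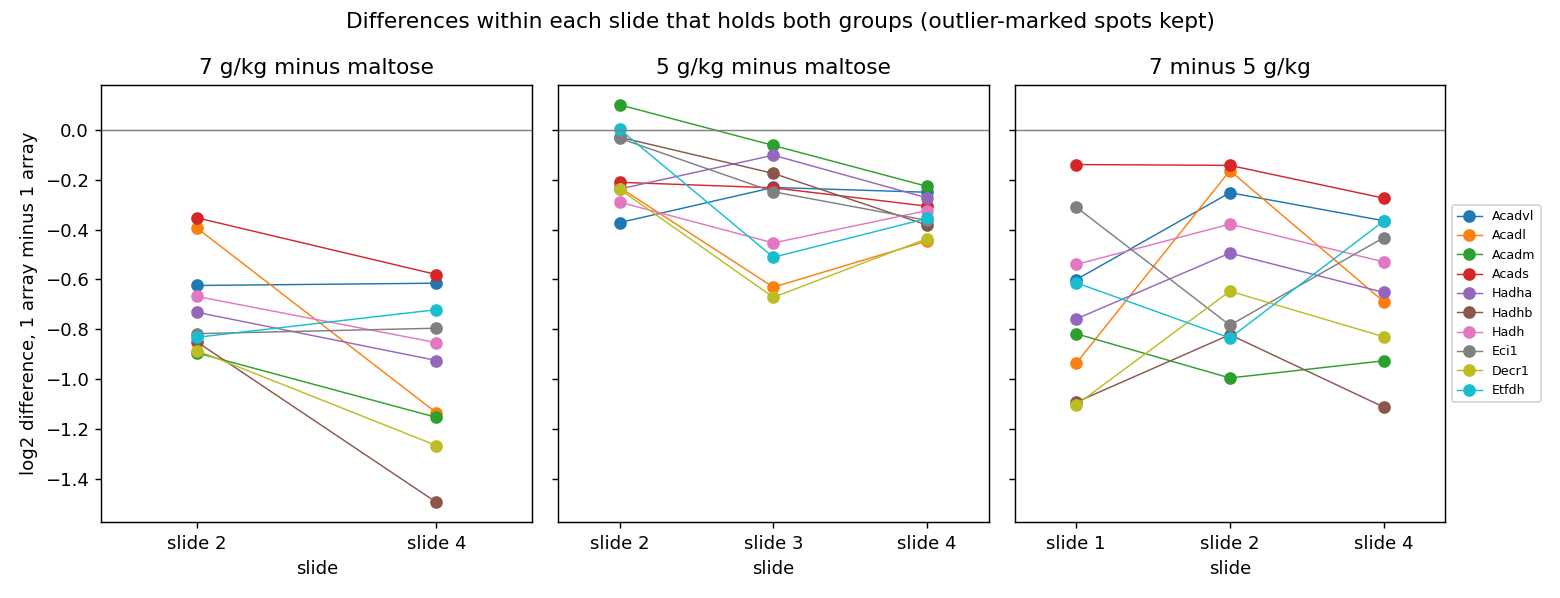
Log2 difference between 1 array of each group on the same slide (x axis), for each gene (lines), at 7 g/kg minus maltose, 5 g/kg minus maltose and 7 minus 5 g/kg. All points for 7 g/kg minus maltose and for 7 minus 5 g/kg lie below 0, and 2 points for 5 g/kg minus maltose lie above it.

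Other genes of fatty acid oxidation were read from lists chosen with earlier results of these data known. Of 11 other mitochondrial beta-oxidation and electron transfer genes, 8 were tested and 7 fell at 7 g/kg against maltose. Hsd17b10, a dehydrogenase of short- and branched-chain hydroxyacyl-CoA, fell 3.16-fold (log2 −1.66). Acad11 and Acad10, acyl-CoA dehydrogenase family members, changed by −0.83 and −0.66. Echs1, the short-chain hydratase, changed by −0.55 (limma adjusted p = 0.00695), Etfb, a subunit of the electron transfer flavoprotein, by −0.54 (limma adjusted p = 0.0125), and Acaa2, the medium-chain thiolase, by −0.33 (limma adjusted p = 0.0484). Etfa, the other flavoprotein subunit, was marked on all 10 arrays and stood at −0.20 with these kept (limma adjusted p = 0.269). In this list 1 gene fell at 5 g/kg and 2 were lower at 7 than at 5 g/kg. Its median change at 7 g/kg was −0.55, against −0.90 for the 7 enzyme genes.

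The genes that bring fatty acids into the mitochondria were mixed. Of 17, 14 were tested, and at 7 g/kg 4 fell and 2 rose, with a median change of −0.083. Cpt1a, the carnitine palmitoyltransferase of the outer membrane that controls entry, had log2 ratios of −0.65, −0.58 and −0.35 at 7 g/kg, −0.14, 0.057, 0.055 and −0.45 at 5 g/kg, and 1.34, 0.91 and 0.90 with maltose. Both ethanol groups lay below all maltose arrays and overlapped each other. Cpt1a fell by 1.58 on the log2 scale at 7 g/kg (limma adjusted p = 2.38e-05) and by 1.17 at 5 g/kg (limma adjusted p = 0.000442). Another probe stood for Cpt1a with marked spots kept, and gave changes of −1.19 at 7 g/kg (limma adjusted p = 0.0019) and −1.15 at 5 g/kg (limma adjusted p = 0.00357). Slc25a20, the carnitine carrier of the inner membrane, changed by −0.94 at 7 g/kg (limma adjusted p = 0.000144) and −0.30 at 5 g/kg (limma adjusted p = 0.166). Cpt2, the palmitoyltransferase on the matrix side, stood at −0.39 at 7 g/kg (limma adjusted p = 0.2) with its marked spots on 5 g/kg arrays 1 and 2 and maltose array 1 left out. It passed with marked spots kept, at −0.49 (limma adjusted p = 0.0454). Dbi, the acyl-CoA binding protein, rose by 1.34 at 7 g/kg.

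Of 18 regulators, 17 were tested, and 5 fell and 1 rose at 7 g/kg. Ppara had log2 ratios of −0.35, −0.47 and −0.27 at 7 g/kg, −0.54, −0.47, −0.56 and −0.30 at 5 g/kg, and 0.76, 0.97 and 0.63 with maltose. All ethanol arrays lay below all maltose arrays, and the 2 doses overlapped. Its log2 change was −1.15 at 7 g/kg (limma adjusted p = 3.65e-05) and −1.25 at 5 g/kg (limma adjusted p = 2.52e-05), and the difference between doses was 0.11 (limma adjusted p = 0.819). The median change of the 7 enzyme genes was −0.90 at 7 g/kg and −0.29 at 5 g/kg. Sirt3, a mitochondrial deacetylase, changed by −0.67 at 7 g/kg, and Lpin1, a phosphatidate phosphatase and coactivator, by 1.24. Of 13 other PPAR alpha target genes 11 were tested, and 5 fell at 7 g/kg.

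In the peroxisome, which shortens very long chains by a parallel route, 13 of 17 genes were tested, and 7 fell and 1 rose at 7 g/kg. Eci2, the peroxisomal isomerase, changed by −0.86, Acaa1b, a peroxisomal thiolase, by −0.87, and Hsd17b4, the peroxisomal bifunctional D-enzyme, by −0.80. Ehhadh, the peroxisomal L-bifunctional enzyme, was marked on all arrays and stood at −2.20 with these kept (limma adjusted p = 1.37e-06). Of 6 ketone body genes 3 fell at 7 g/kg, among them Bdh1, the hydroxybutyrate dehydrogenase (log2 −1.35), and Acat1 (log2 −0.78).

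Beyond fatty acid oxidation, 7 of 8 listed dehydrogenases of amino acid and one-carbon breakdown that also feed the electron transfer flavoprotein were tested, and 3 fell at 7 g/kg, Sardh (log2 −0.65), Ivd (log2 −0.61) and Dmgdh (log2 −0.41). Of 17 tricarboxylic acid cycle genes tested, 2 fell and 2 rose, with a median of 0.031. Fh1, fumarase, rose by 1.49, and by 1.16 with marked spots kept. The mitochondrial isocitrate dehydrogenase gene Idh2 changed by −0.88 and Suclg1, a succinyl-CoA ligase subunit, by −0.50. Over the 8 lists, 36 of 93 genes tested fell and 6 rose at 7 g/kg. The counts at 5 g/kg were 8 that fell and 3 that rose, and between doses 15 were lower and 3 higher at 7 g/kg.

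**Figure D4:**
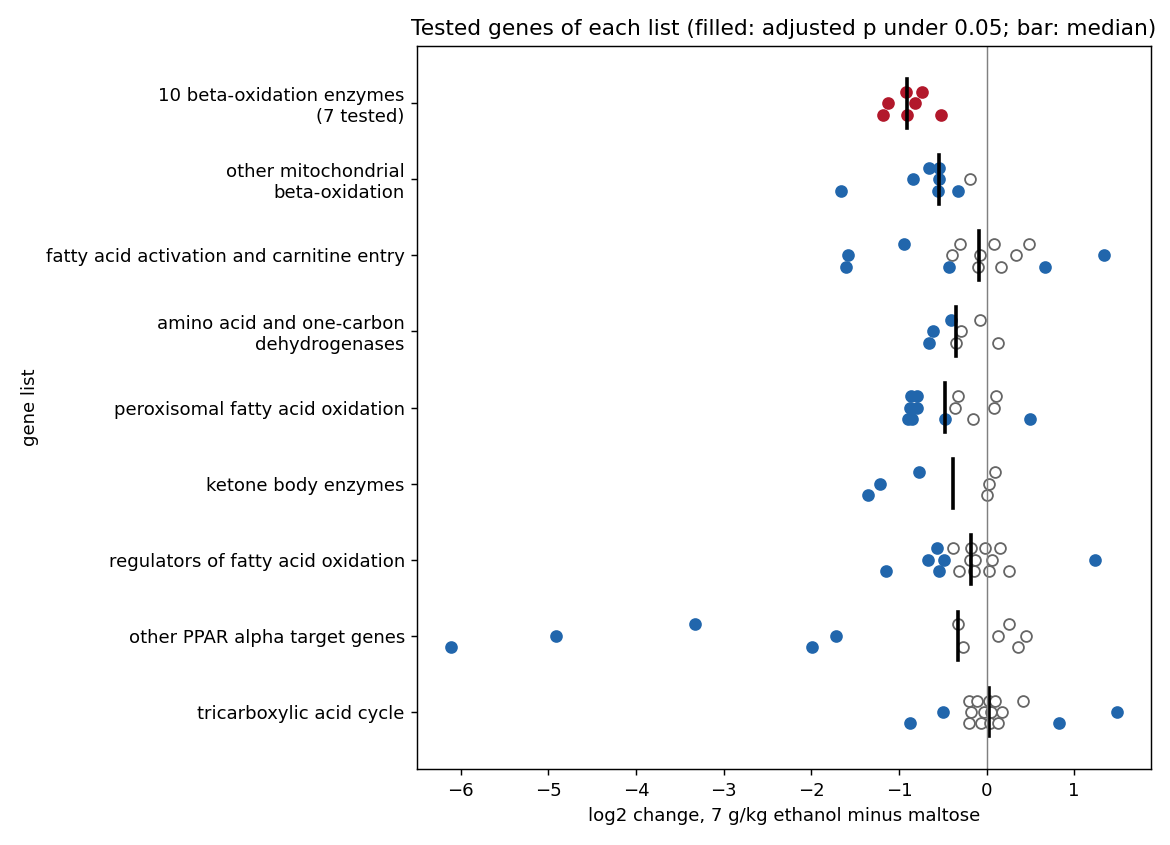
Log2 change at 7 g/kg ethanol minus maltose (x axis) of each tested gene of the enzyme set (top row) and of 8 context lists (rows). Filled symbols have a limma adjusted p under 0.05 and bars are medians; the enzyme set has its median at −0.90 and the tricarboxylic acid cycle at 0.031.

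Some markers of the cell types of the liver also differed between the groups. The means below were taken with marked spots kept. The mean log2 ratio of the 5 hepatocyte markers was 0.595 to 0.884 on the 7 g/kg arrays, 0.460 to 0.833 on the 5 g/kg arrays and −0.036 to 0.190 on the maltose arrays. At 7 g/kg 2 of these 5 rose, Fgb by 2.64 (limma adjusted p = 0.000202) and Ttr by 0.69 (limma adjusted p = 0.048), while Alb, Apoa1 and Apob stood at 0.084, −0.16 and −0.25 and did not pass. The median change of the 5 was 0.084. The mean of 6 endothelial markers was −0.061 to 0.065 at 7 g/kg, −0.145 to 0.050 at 5 g/kg and −0.560 to −0.309 with maltose, and 3 of 6 rose at 7 g/kg. The mean of 5 neutrophil markers was 0.266 to 0.478 at 7 g/kg, −0.070 to 0.411 at 5 g/kg and −0.148 to 0.011 with maltose. Of the 4 tested, 2 rose at 7 g/kg, S100a8 and S100a9. With marked spots kept these changed by 1.28 and 1.40, while Csf3r, Cxcr2 and Elane stood at −0.41, −0.049 and 0.019 and did not pass. The mean of 6 stellate cell markers was 0.060 to 0.118 at 7 g/kg, 0.109 to 0.221 at 5 g/kg and −0.384 to −0.029 with maltose, and 0 of 6 passed in limma at 7 g/kg. Of 5 Kupffer cell markers 0 passed. No list had a marker that was never well above background. The part of these cell types in the changes of the enzyme genes was not tested.

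The genes with a symbol whose log2 ratios over the 10 arrays ran most like the mean of the enzyme genes were Hsd17b11 (Pearson r = 0.989), Pbld2 (0.989), Acat1 (0.987), Zfp444 (0.982) and Txndc15 (0.978), out of 13594 compared. These correlations describe arrays that share groups and a common reference, and they carry no test. Hsd17b11, which encodes a short-chain dehydrogenase of lipid droplets, changed by −1.28 at 7 g/kg and −0.36 at 5 g/kg. Acat1, the mitochondrial acetoacetyl-CoA thiolase, changed by −0.78 at 7 g/kg and −0.23 at 5 g/kg.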

How the data were processed

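Total liver RNA (Cy5) and a common reference (Cy3) were read on 10 arrays. The deposited median intensity of each spot and its background came from Agilent Feature Extraction 11.5.1.1, per the file headers. That software also gave the deposited processed intensity and, from it, a log10 ratio of Cy5 to Cy3. The authors' series table is on a log2 scale, as read from its values, and how it was centred is not given in the sources used here.

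Median intensities were processed in R 4.3.3 with limma 3.58.1: normexp (offset 50), loess within arrays, control and outlier-marked spots left out, spots of a probe averaged. Probes well above background in Cy5 on at least 3 arrays and with at least 2 values per group were kept. A gene was read from its brightest probe by the mean of both channels. Of 41174 probes, 24375 (59.2%) matched a symbol through RefSeq accessions (GRCm38.p6). The array design is on mm8, so probe coordinates are not given. A fit of 3 group means over all 10 arrays with empirical Bayes (7 residual, 7.22 prior degrees of freedom) gave two-sided p, adjusted over all genes. The labels give replicate numbers, and a fit with them as a block was an alternative. The limma fit was tested on simulated gene values with known changes, and the steps before it were not.

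The named genes are the 10 enzyme genes, 11 context genes taken whatever their result, up to 3 genes per list with the smallest p, and the 5 most alike genes. A few genes chosen by this rule are not reported here. The genes and lists were chosen with earlier results of these data known. Alternatives changed background correction, normalization, channel, source of values, filters, probe choice, blocks, weights and arrays used.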

Additional observations from a re-analysis of the deposited data

Results flagged for a closer look

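At 5 g/kg, the Acadl log2 ratio of array 3 was 0.819, apart from the other 3 arrays of its group, which lay between 0.434 and 0.498. This was the only such case among 12 probes tested in the group of 4 arrays. For a single probe chance gives about 1 in 20, so 1 case among 12 probes is not unusual.

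The difference between the ethanol doses itself passed the limma test, 7 minus 5 g/kg, for Hadha (−0.69), Hadhb (−1.01), Acadvl (−0.45), Eci1 (−0.53) and Decr1 (−0.81), and, with outlier-marked spots kept, for Acadm (−0.90) and Etfdh (−0.59), all on the log2 scale.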

How the results depend on the processing

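At 7 g/kg against maltose, 251 of 256 log2 changes of single genes under an alternative kept their sign and stayed past the threshold, and 5 kept their sign but missed it: Acads with median centring, Cy5 alone and without maltose array 2, and Acadl and Hadh with Cy5 alone. Some alternatives could move only the p-value and not the change, such as leaving out a 5 g/kg array or using only the 2 groups. There the sign was fixed in advance. The count of enzyme genes called was 5 with Cy5 alone and 10 with marked spots kept, and 6 to 7 when any 1 array was left out. The count at 5 g/kg was 0 under every alternative, and 1 change turned, Acadm without maltose array 2, to 0.037 (range −0.12 to 0.037 without any 1 array). Between doses, the count of enzyme genes called, 5, was 3 with an offset of 16, median centring, the series table, slide as a block, and only the 2 groups, 2 with the scanner log ratio, and 0 with Cy5 alone, with 2 to 4 when any 1 array was left out. By gene, the call between doses was lost under 1 of 26 alternatives each for Hadha and Hadhb. It was lost under 6 of 26 for Decr1, 14 of 26 for Eci1 and 18 of 26 for Acadvl. With marked spots kept it was lost under 1 of 25 for Acadm and 9 of 25 for Etfdh. Cy5 alone was among these for each gene, and the scanner log ratio and the series table for Acadvl, Eci1, Decr1 and Etfdh. The causes were not tested.

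Genes called at 5 g/kg (985) were 116 with Cy5 alone, 520 with the scanner log ratio, 583 with the series table, 1530 at an adjusted p under 0.1 and 464 to 1047 without any 1 array, with 464, 615 and 490 without maltose arrays 1, 2 and 3. At 7 g/kg (2329) they were 593 with Cy5 alone and 1486 to 2345 without any 1 array, the lowest without maltose array 1. Between doses (407) they were 46 with Cy5 alone, 114 with the scanner log ratio, 137 with the series table, 619 at an adjusted p under 0.1 and 209 to 408 without any 1 array, with 209 and 224 without 7 g/kg arrays 1 and 2 and 247 and 227 without 5 g/kg arrays 1 and 2. Of the calls, 51.9% were higher at 7 g/kg against maltose, and 66.6% with median centring. The same shares at 5 g/kg were 57.8% and 75.2%. Between doses 43.2% were higher, and 67.4% with Cy5 alone.

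The deviations of same-numbered arrays from their group means correlated at −0.115 to 0.047 for 7 g/kg and maltose, 0.022 to 0.208 for 5 g/kg and maltose, and −0.209 to 0.178 between doses. Arrays with different numbers were not compared in this way. Some same-numbered arrays also shared a slide, among them the pair at 0.208. With the replicate number as a block, 3 enzyme genes and 270 genes in all were called between doses, 7 enzyme genes at 7 g/kg and 0 at 5 g/kg.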
